A study of Oryctolagus cuniculus with 4 samples.

Results

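The transcripts of the ERBB receptors and of the EGF family ligands that bind them were compared between parthenote and in vivo fertilised rabbit blastocysts. The genes listed were the receptors EGFR, ERBB2, ERBB3 and ERBB4 and the ligands EGF, HBEGF, TGFA, AREG, EREG and BTC, and their probes were found by gene name, accession or the gene given in the description of each spot. Of these 10 genes, 9 had a probe, with 21 receptor probes and 20 ligand probes, so that 41 of the 43603 probes on the array and 9 of the 10342 genes named and tested were described. EGF itself was not analysed here.

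All embryos were 6-day-old blastocysts of New Zealand White rabbits. Parthenotes came from oocytes activated by electrical pulses and then exposed to cycloheximide and 6-DMAP. They were transferred into the oviducts of recipient does after activation and later flushed from the uterine horns. The fertilised embryos were untreated and were flushed from inseminated does. Each of the 4 arrays held 1 pool of 7 parthenotes labelled with Cy3 and 1 pool of 7 fertilised embryos labelled with Cy5, from 150 ng of total RNA. The dyes were the same way round on all arrays, and the parthenotes, unlike the fertilised embryos, had been transferred, so that dye, transfer and activation cannot be told apart. A pool averages its embryos, and in such bulk RNA fewer cells of a type and less RNA per cell cannot be told apart.

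EGF family ligands are made as membrane-anchored precursors whose ectodomain is released by metalloproteinases, and they bind receptors that pair on the cell surface and signal through the RAS-MAPK and PI3K pathways. EGFR binds AREG, EREG, TGFA, HBEGF, BTC and EGF, ERBB4 binds some of these and the neuregulins, ERBB2 has no known ligand of its own and works as the partner of the others, and ERBB3 relies on its partner because its own kinase is weak. In early pregnancy this family is best known from the implanting blastocyst and the uterine epithelium facing it, where HBEGF takes part in attachment.

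The results turn on probes of 60 bases, which are printed as the array files hold them because probes of 1 gene did not always give the same ratio. All 41 member probes read without a stop codon in the frame that their start in the transcript sets. Coding sequence would read this way, but in stretches this short it is not established by that alone. In the 7 probes of AREG and EREG, the ligands that differed most clearly between the groups, capitals mark bases also covered by a neighbouring probe of the same gene.
AREG A_04_P088000: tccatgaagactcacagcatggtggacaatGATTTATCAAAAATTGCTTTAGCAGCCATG
AREG A_04_P087999: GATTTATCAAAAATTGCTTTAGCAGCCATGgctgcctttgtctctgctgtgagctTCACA
AREG A_04_P087998: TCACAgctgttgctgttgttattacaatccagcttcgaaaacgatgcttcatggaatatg
EREG A_04_P087995: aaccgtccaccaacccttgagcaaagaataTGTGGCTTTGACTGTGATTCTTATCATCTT
EREG A_04_P087994: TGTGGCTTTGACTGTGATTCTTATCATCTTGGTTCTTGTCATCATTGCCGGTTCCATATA
EREG A_04_P087993: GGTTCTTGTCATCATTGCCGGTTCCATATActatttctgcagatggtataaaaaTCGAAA
EREG A_04_P087992: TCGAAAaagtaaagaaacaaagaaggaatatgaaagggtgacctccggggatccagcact
The AREG probes and the first 3 EREG probes lie over and beside the membrane span of each precursor, while the last EREG probe lies in its cytoplasmic tail. The files placed both genes on the minus strand of chromosome 15 in a genome build that they do not name, AREG A_04_P088000 at chr15:75829510-75829569 and EREG A_04_P087995 at chr15:75883082-75883141. AREG A_04_P087998 spans 2358 genomic bases and EREG A_04_P087993 spans 1470, so each bridges an intron.

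Neighbouring AREG probes share 30 and 5 identical bases, and neighbouring EREG probes share 30, 30 and 6, so the probes of a gene are not independent measurements. The 10 probes in the ectodomain of EGFR cover 86 bases of transcript and fall into 2 series whose sequences differ at a few bases. An example of each series is shown with the cytoplasmic probe, and capitals mark the bases at which the first 2 differ over the 43 bases they share (A50G and C59G, counted from the 5′ end of A_04_P029682).
EGFR A_04_P029682: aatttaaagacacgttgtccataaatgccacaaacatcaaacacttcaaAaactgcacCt
EGFR A_04_P013695: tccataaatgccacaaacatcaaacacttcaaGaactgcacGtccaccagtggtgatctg
EGFR A_04_P093372: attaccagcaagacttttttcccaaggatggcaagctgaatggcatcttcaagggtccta
The HBEGF and TGFA probes printed next lie in the EGF-like domain, the part of these ligands that contacts the receptor, and capitals mark their cysteine codons, 3 in each probe. The TGFA probes, whose ratios had opposite signs, overlap almost completely.
HBEGF A_04_P013941: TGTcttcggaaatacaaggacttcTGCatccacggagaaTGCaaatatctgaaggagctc
TGFA A_04_P012981: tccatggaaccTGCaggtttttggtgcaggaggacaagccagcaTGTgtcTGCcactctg
TGFA A_04_P029802: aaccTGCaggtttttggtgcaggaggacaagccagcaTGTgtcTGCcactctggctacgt

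Values are given as processed signals, the intensity of a channel in array units after background subtraction and dye normalisation, and as the log2 ratio of parthenote over fertilised within an array, so that a positive value is higher in parthenotes, the opposite of the sign of the log ratio in the array files and of the fold changes in the study's own lists. Each mean ratio over the 4 arrays was tested against 0 with limma, with Benjamini-Hochberg adjustment over the 43595 probes tested and a threshold of 0.05. By this test 20.6% of all probes were past the threshold, 9.53% higher and 11.1% lower in parthenotes. A spot is called well above background by the scanner software. It called fewer spots in the parthenote channel on every array. A parthenote signal could go uncalled at a level that was called in the fertilised channel, so an uncalled signal is not an absent transcript. Signals of different probes are not comparable with each other, and precision is limited by there being 4 arrays.

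No receptor probe was past the threshold, 0 of 21 by limma against 20.6% of all probes, with 3 at an unadjusted p under 0.05. Of these 21 probes, 6 had a ratio of exactly 0 on all arrays and could not pass, and 10 overlapped within 86 bases of EGFR. The count of 0 thus does not show that the receptors were unchanged. Among the ligands 6 of 20 probes were past the threshold, or 30%, of which 2 were higher and 4 lower. AREG was higher in parthenotes, with 2 of its 3 probes called, and EREG was lower, with 3 of its 4 probes called. The remaining call was a TGFA probe whose signal was not well above background in any pool. HBEGF and ERBB2, both well above background in all 8 pools, had mean log2 ratios between −0.15 and 0.13, none past the threshold.

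**Figure D1:**
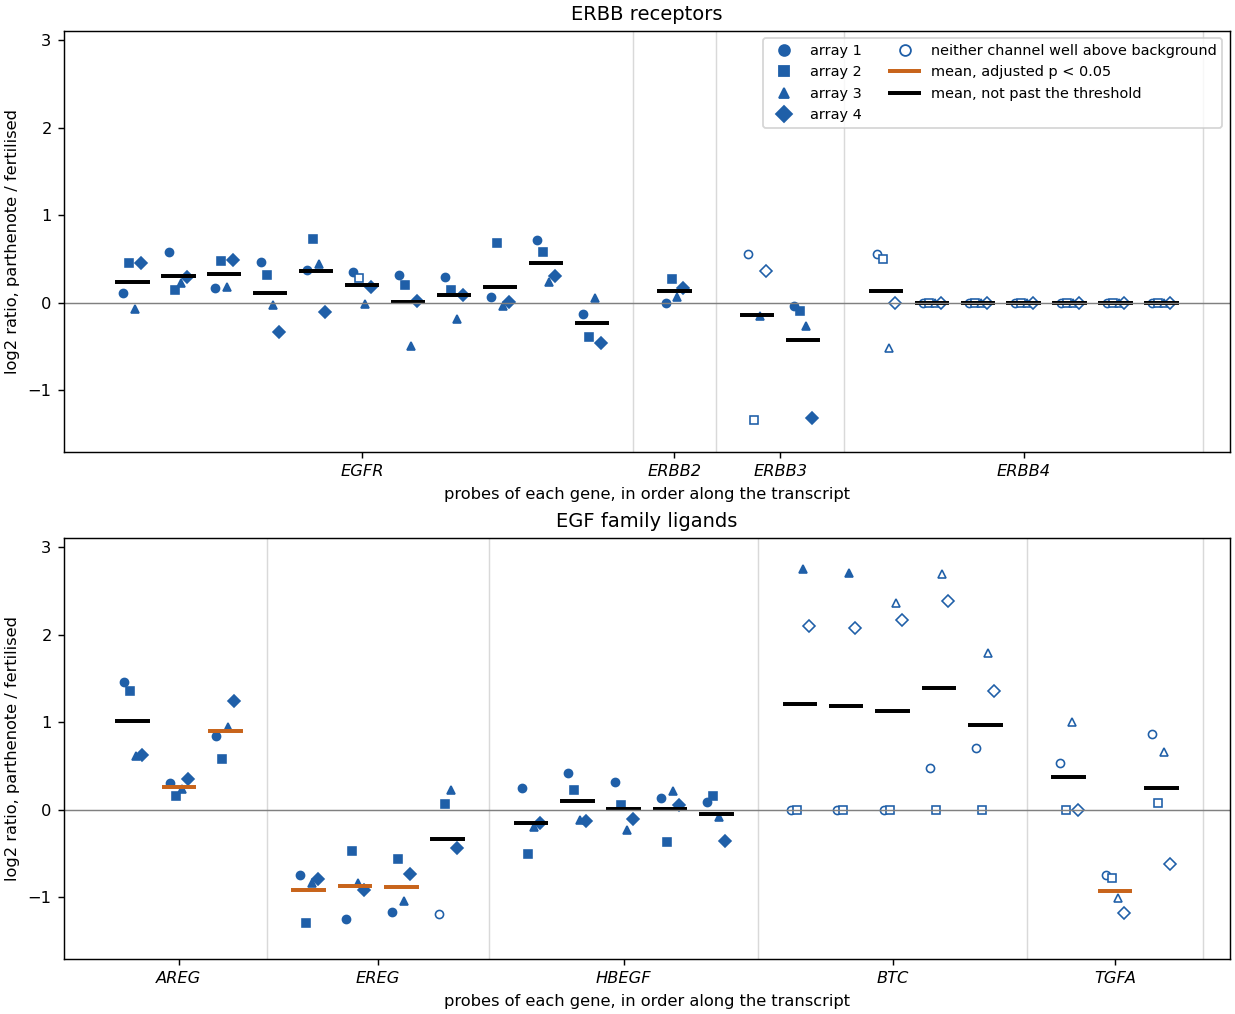
Log2 ratio of parthenote over fertilised (y axis) on each of the 4 arrays for the 41 probes of receptors (top) and ligands (bottom), in order along each transcript on the x axis. Bars are means, orange where the adjusted p was under 0.05, and open symbols mark arrays on which neither channel was well above background. AREG lies above 0 on every array, 3 EREG probes lie below 0 on every array, and most ERBB4 values are exactly 0.

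EGFR, the receptor shared by most of these ligands, was measured by 11 probes, 8 of them well above background in all 8 pools. The 10 ectodomain probes had mean log2 ratios between 0.01 and 0.46, and 32 of their 40 values on single arrays were positive. Averaged over the 10 probes, the ratio was 0.35, 0.40, 0.02 and 0.14 on arrays 1 to 4, a mean of 0.23 ± 0.18 (SD, n = 4). The groups thus differed by about the spread between arrays. The probe with the highest ratio, A_04_P013691, had signals of 44.7, 35.7, 32.1 and 36.1 in the parthenote pools and of 27.2, 23.8, 27.2 and 29.2 in the fertilised pools. All parthenote pools were above all fertilised pools on it, but 34.8% of all probes had groups that did not overlap. The difference did not pass the threshold (0.46 ± 0.23 (SD, n = 4), adjusted p = 0.0645 by limma). It was the lowest adjusted p of any receptor probe.

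The brightest EGFR probe, A_04_P093372 in the cytoplasmic tail, went the other way. Its parthenote signals were 32.9, 42.2, 38.1 and 23.8 and its fertilised signals 35.8, 55.2, 36.7 and 32.9, a log2 ratio of −0.23 ± 0.24 (SD, n = 4, adjusted p = 0.247 by limma). The pools of the groups overlapped on this probe. Within arrays the mean of the ectodomain probes differed from it by 0.47, 0.79, −0.03 and 0.61, a description with no test, since the probes were set against each other after their values were seen. With probes kept only where 1 channel was well above background on all arrays, 26664 probes were tested and 3 of the 10 EGFR probes kept were past the threshold, all higher in parthenotes (lowest adjusted p = 0.0169 by limma). Under that filter 42.4% of all probes were past the threshold, 18.5% higher in parthenotes.

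ERBB2, the partner receptor without a ligand of its own, had 1 probe, A_04_P049357, in the kinase domain. Its signals were 274, 325, 286 and 249 in parthenotes and 273, 270, 272 and 221 in fertilised embryos. The groups overlapped, and the log2 ratio of 0.13 had a 95% interval from −0.03 to 0.29 (adjusted p = 0.196 by limma), which leaves out a difference of 1.5-fold in either direction under this processing. With normexp background correction and median centring, which leaves dye bias that changes with signal, the probe was called lower (−0.27, adjusted p = 0.0143 by limma).
ERBB2 A_04_P049357: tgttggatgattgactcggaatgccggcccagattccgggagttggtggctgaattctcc

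ERBB3 had 1 probe starting at base 440 of the transcript and 1 at base 3544, and both were dim. The brighter one, A_04_P004586, was well above background in all 4 fertilised pools but in only 1 parthenote pool. Its parthenote signals were 15.8, 35.5, 10.4 and 4.95 and its fertilised signals 16.2, 37.9, 12.5 and 12.3. Every array had a lower parthenote signal, but the mean log2 ratio of −0.43 ± 0.60 (SD, n = 4) rested mostly on array 4, at −1.32, and was −0.13 without it (adjusted p = 0.38 by limma with all arrays). The other ERBB3 probe, A_04_P013931, gave −0.14 with values from −1.34 to 0.56.

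ERBB4, the receptor that also binds the neuregulins, was not well above background in any pool on any of its 7 probes. On 6 of them the deposited ratio was exactly 0 on all 4 arrays, the value given where both channels are too dim, and 25 of its 28 values were 0. No level of ERBB4 could be compared. The same held for the other family ligands with a probe, EPGN, NRG1 and NRG3, of which none was well above background in any pool.

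Among the ligands, AREG (amphiregulin, an EGFR ligand) was higher in parthenotes on all 4 arrays with each of its 3 probes. The brightest, A_04_P087998, gave signals of 35.7, 20.1, 33.9 and 30.0 in parthenotes and of 19.9, 13.4, 17.6 and 12.7 in fertilised embryos. The groups did not overlap, and the mean log2 ratio was 0.90 ± 0.27 (SD, n = 4), a 1.87-fold higher level (adjusted p = 0.0284 by limma). Of all probes, 34.8% had groups that did not overlap.

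The first AREG probe, A_04_P088000, had signals of 35.9, 26.4, 32.2 and 22.7 against 13, 10.3, 21.1 and 14.6, again without overlap, and a log2 ratio of 1.01 ± 0.46 (SD, n = 4) that was short of the threshold (adjusted p = 0.0563 by limma). It was well above background in all 4 parthenote pools but only in the fertilised pools of arrays 3 and 4, where its ratio was 0.61 and 0.63 against 1.46 and 1.36 on the other two. The probe between them, A_04_P087999, showed a smaller difference, with 24.5, 19.5, 21.0 and 23.2 against 19.7, 17.5, 17.8 and 18.2. Its groups overlapped by 1 pair of pools, and its log2 ratio of 0.26 ± 0.09 (SD, n = 4) was past the threshold because it varied little (adjusted p = 0.0332 by limma).

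EREG (epiregulin, which binds EGFR and ERBB4) was lower in parthenotes. On A_04_P087994 its signals were 9.79, 18.2, 12.8 and 12.1 in parthenotes and 23.2, 25.2, 22.7 and 22.9 in fertilised embryos, without overlap. On A_04_P087993 they were 9.04, 15.8, 11.4 and 11.6 against 20.4, 23.3, 23.5 and 19.3, also without overlap. On A_04_P087995 they were 16.7, 11.0, 11.6 and 9.45 against 27.9, 26.7, 20.8 and 16.4, where the highest parthenote pool just exceeded the lowest fertilised one. These 3 probes were well above background in every fertilised pool and in no parthenote pool. The call was not alike in the 2 channels. On A_04_P087995 a parthenote signal of 16.7 was not called, while a fertilised signal of 16.4 was. The log2 ratios of the 3 probes were −0.87, −0.88 and −0.91 in that order, with adjusted p = 0.0389, 0.0313 and 0.0246 by limma.

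Since no parthenote pool was called well above background on these 3 EREG probes, no exact fold is given. After normexp (offset 50) with a repaired background, loess and between-array normalisation, EREG was 1.11-fold, 1.14-fold and 1.14-fold lower in the same order. These values set the mean of the fertilised pools against the higher of the probe's own signal and the dimmest signal well above background on each array. The offset of 50 exceeds the processed signal of these 3 probes in every pool and draws the values towards 1. They are therefore not on the scale of the log2 ratios above. The floor set by the dimmest signal left the mean signal of each probe unchanged, so the values are ratios under this processing and not lower limits. They are open to dye bias, and normexp with median centring left the 3 probes between −0.03 and 0. The tail probe A_04_P087992 differed from the other 3. Its pools ranged from 4.88 to 34.9 in parthenotes and from 11.1 to 47.1 in fertilised embryos, and its log2 ratio was −1.19, 0.07, 0.23 and −0.44, a mean of −0.33 ± 0.64 (SD, n = 4, adjusted p = 0.523 by limma). This was the brightest EREG probe, so that EREG by its brightest probe alone was not past the threshold, while the mean of its 4 probes was (−0.75, adjusted p = 0.02 by limma over gene means).

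**Figure D2:**
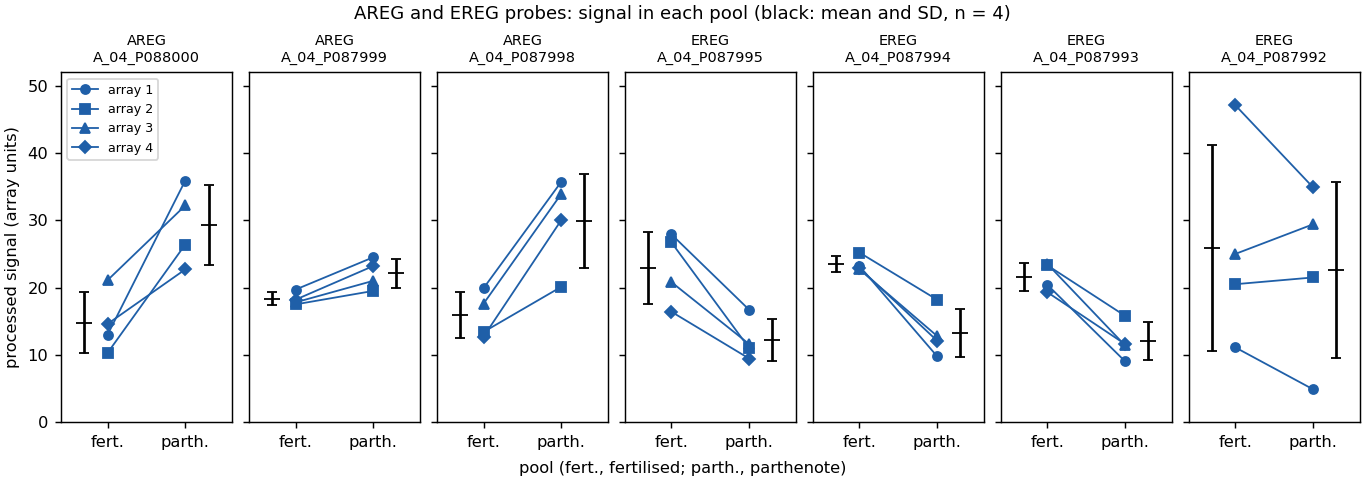
Processed signal in array units (y axis) of the 3 AREG and 4 EREG probes in the fertilised and parthenote pool of each array, joined by a line per array, with the mean and SD of each group in black. All lines rise for AREG and all fall for the first 3 EREG probes, while the last EREG probe has lines in both directions.

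The called probes of AREG and EREG thus had opposite signs in the same pools. The calls of both genes depended on having all 4 arrays. With array 1, 2, 3 or 4 left out, the AREG call on A_04_P087998 was lost (adjusted p from 0.0667 to 0.113 by limma), as were the EREG calls, except that A_04_P087995 stayed past the threshold without array 2. The methods' t-test also missed the threshold on these probes, and normexp background correction (offset 50) followed by loess gave 0.22 for A_04_P087998 (adjusted p = 0.0654) and −0.13 or −0.14 for the 3 EREG probes (adjusted p from 0.122 to 0.129 by limma). The offset exceeds the processed signals of these probes and draws their ratios towards 0. With normexp and median centring, the AREG probe kept its call (0.30, adjusted p = 0.00862 by limma), while the EREG probes lay between −0.03 and 0 (adjusted p from 0.778 to 0.992 by limma). Under that setting all 7 ERBB4 probes, never well above background, were also called higher, at 0.27 to 0.36. The AREG and EREG values under it thus cannot be told apart from dye bias that changes with signal. With a repaired background and loess, A_04_P087998 (0.25, adjusted p = 0.0147) and the EREG probes (−0.15 to −0.19, adjusted p from 0.0198 to 0.0488 by limma) were past the threshold. The other called AREG probe, A_04_P087999, lost its call in all 3 of these normexp settings (0.06, 0.18 and 0.08, adjusted p = 0.41, 0.0887 and 0.219 by limma). It also lost it with any 1 array left out (adjusted p from 0.0658 to 0.117 by limma).

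HBEGF (heparin-binding EGF-like growth factor) was well above background in all 8 pools on all 5 of its probes, and none was past the threshold. Its brightest probe, A_04_P102700, had signals of 42.2, 41.2, 29.4 and 35.4 in parthenotes and of 31.5, 35.1, 32.1 and 38.9 in fertilised embryos. The groups overlapped, with a log2 ratio of 0.10 and a 95% interval from −0.28 to 0.48 (adjusted p = 0.665 by limma). The EGF-like domain probe gave −0.15 (interval −0.58 to 0.28), and the other 3 lay between −0.05 and 0.01.

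**Figure D3:**
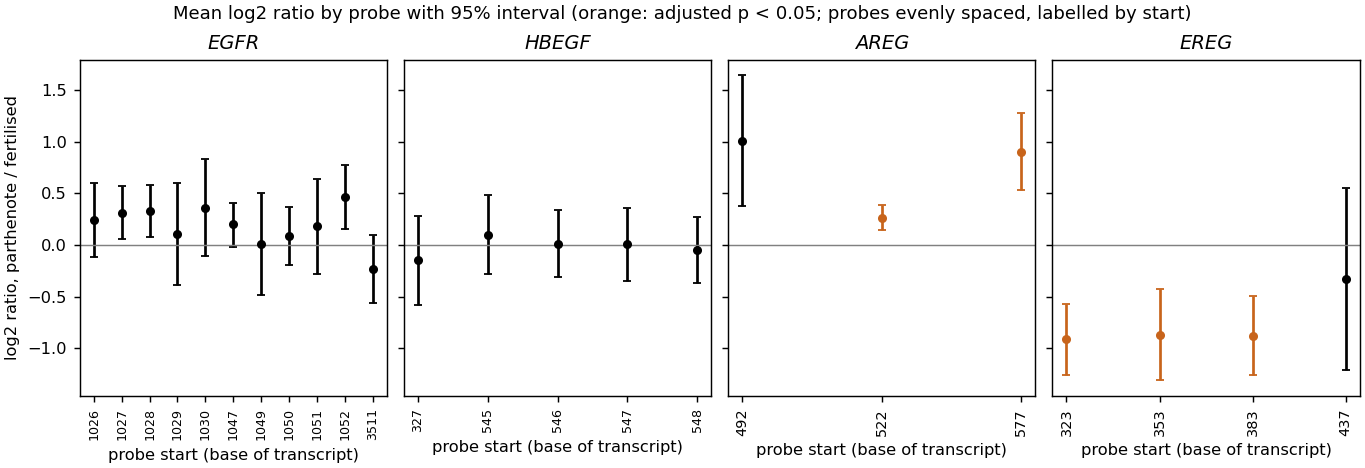
Mean log2 ratio with its 95% interval (y axis) for each probe of EGFR, HBEGF, AREG and EREG, placed evenly and labelled with its start in the transcript (x axis), orange where the adjusted p was under 0.05. The EGFR probe starting at base 3511 is the only one of that gene with a mean below 0, and the EREG probe starting at base 437 has the widest interval of its gene.

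BTC (betacellulin, which binds EGFR and ERBB4) had mean log2 ratios from 0.97 to 1.39 on 5 probes that start 1 base apart, and none was past the threshold (adjusted p from 0.165 to 0.301 by limma). The difference came from 2 of the 4 arrays. On A_04_P050596 the parthenote signal was 3.74, 3.52, 17.6 and 10.2 and the fertilised signal 2.91, 2.66, 2.60 and 2.38, and the log2 ratio was 0 on arrays 1 and 2 and 2.75 and 2.10 on arrays 3 and 4. BTC was not well above background in any fertilised pool, and only the parthenote pool of array 3 was, on 2 of the 5 probes. No fold is given, since only 1 of the 4 parthenote pools was well above background.

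TGFA (transforming growth factor alpha) had 3 probes, none well above background in any pool, so no fold is given. The called probe, A_04_P029802, had signals of 5.06, 6.07, 4.47 and 4.05 in parthenotes and of 8.46, 10.4, 9.03 and 9.18 in fertilised embryos (adjusted p = 0.0178 by limma). The probe that starts 7 bases upstream, A_04_P012981, had the opposite sign, with a log2 ratio of 0.53, 0, 1 and 0 on the 4 arrays, and A_04_P004816 gave 0.25 with values from −0.62 to 0.86. The probes of TGFA thus disagreed in sign. With normexp and loess the ratio of the called probe was −0.04 (adjusted p = 0.566 by limma).

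For the members with the highest signal, the likeness of their pattern to other named genes was described over the 8 pools. Of 6964 genes well above background in all pools, GANAB, COQ7 and SLC18A1 followed ERBB2 most closely (Pearson r of log2 signal of 0.97, 0.97 and 0.96), and GLYR1, BNIP5 and PDLIM5 followed HBEGF (0.93, 0.90 and 0.87). These 8 points share arrays and dyes, and the closest of 6964 genes over 8 points can reach a high r by chance. The correlations were not tested.

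Of 88 other genes of the pathway, 58 had a probe under their name. By the brightest probe of each, 15 were past the threshold, 5 higher and 10 lower in parthenotes, against 23.9% of the 10342 named genes, 11.6% higher and 12.3% lower, and their median log2 ratio was −0.02, against 0 for all named genes. The list of ligand processing had 2 of 6 genes higher and none lower. These were TIMP3, an inhibitor of the metalloproteinases that shed the ligands, at 1.09 ± 0.23 (SD, n = 4, adjusted p = 0.0162 by limma), and the heparan sulphate proteoglycan SDC4 at 0.29. Of the proteases, ADAM9 had a log2 ratio of 0.48 and ADAM10 of 0.29, neither past the threshold (adjusted p = 0.065 and 0.161 by limma). The median of the list was 0.29.

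Among adaptors and kinases 2 of 22 genes were higher and 4 lower, with a median of −0.02. The lower ones were led by the transcription factor STAT3 at −0.45, the kinase MAPK3 (ERK1) at −0.37 and the RAS exchange factor SOS2 at −0.36, and the higher ones were GSK3B at 0.29 and RPS6KB1 at 0.21. The adaptor GRB2 and the kinase BRAF had log2 ratios of 0.01 and −0.03. Among inhibitors of the pathway 3 of 16 genes were lower, against 12.3% of all named genes, with a median of −0.22. SOCS5, SPRY2 and SPRY1, which restrain receptor or RAS signalling, were lower, with log2 ratios of −0.63 ± 0.23, −0.61 ± 0.17 and −0.51 ± 0.15 (SD, n = 4). SPRY1 was dim, with mean signals of 25.8 in parthenotes and 36.7 in fertilised embryos. Unlike SOCS5 and SPRY2, it lost its call with normexp and loess (−0.11, adjusted p = 0.19 by limma). DUSP6, a phosphatase acting on ERK, had a log2 ratio of 0.31 and was just short of the threshold (adjusted p = 0.0521 by limma). ERRFI1 and LRIG1, direct inhibitors of the receptors, had −0.12 and −0.11 and were not past the threshold.

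In the list of response genes and transcription factors of the pathway, 1 of 11 was higher and 3 were lower, with a median of 0. JUN was higher at 0.56 ± 0.18 (SD, n = 4), while EGR1 at 0.50 and FOS at 0.29 were not past the threshold (adjusted p = 0.141 and 0.755 by limma). PHLDA1 at −0.67 was not well above background in any parthenote pool, so no fold is given. ELK1 at −0.52 and MYC at −0.15 were the other lower genes. With normexp and loess the calls of PHLDA1, ELK1 and MYC were lost (adjusted p = 0.216, 0.236 and 0.0759 by limma). Under normexp with median centring, the signs of SDC4, GSK3B and RPS6KB1 turned and PHLDA1 stood at 0.08. JUN (0.06), SPRY1 (−0.07) and ELK1 (−0.03) were not past the threshold in that setting (adjusted p = 0.579, 0.487 and 0.808 by limma). With 1 array left out, between 0 and 5 pathway genes were past the threshold by limma. The count of 0 was without array 4, where 17 had an unadjusted p under 0.05.

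**Figure D4:**
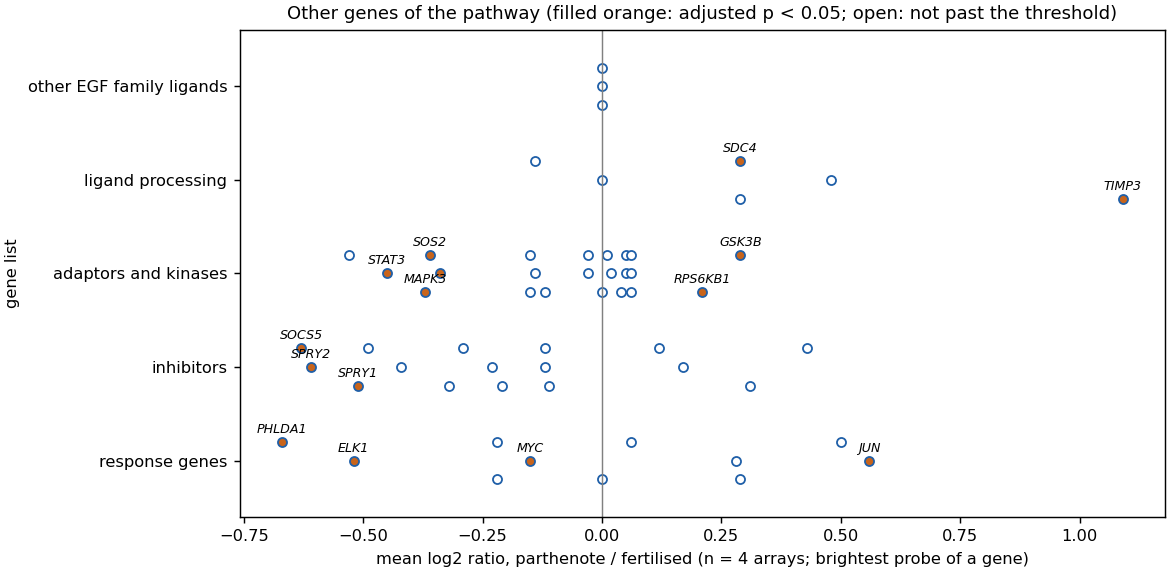
Mean log2 ratio over the 4 arrays (x axis) of the 58 other pathway genes, by list (y axis), for the brightest probe of each gene. Filled symbols passed the threshold and carry the gene's name where it is described. Symbols lie on both sides of 0 in every list except the other ligands, all 3 at 0.

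Markers of other cell types differed between the groups in the same pools. Of all named genes 23.9% were past the threshold and 11.6% were higher. Of the 8 measured genes of motile ciliated cells 4 were higher and none lower, and their summed signal was 399 to 1007 in parthenote pools and 146 to 227 in fertilised pools. RSPH1 and CFAP144 of that list were not well above background in any fertilised pool. Of 7 genes of oviduct and uterine secretory epithelium 5 were higher, and their sum was 14489 to 35485 against 4855 to 8621. For erythroid cells 3 of 5 genes were higher (sum 60372 to 133005 against 8228 to 29529), for leukocytes 4 of 9 (571 to 615 against 369 to 400) and for stroma and smooth muscle 1 of 11, a share no higher than that of all named genes (3668 to 5079 against 2345 to 3226). A sum is set mostly by its brightest probes, and it serves here only to put the same probes of both groups side by side. The gene of highest signal in each of these lists, as the naming rule takes it, had a log2 ratio of 1.08 (SPAG6, not past the threshold), 0.01 (WFDC2, not past the threshold), 3.25 (HBB2), 0.92 (CD14) and 0.66 (TAGLN). Their part in the AREG, EREG and BTC values was not tested.

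The ratio of summed secretory markers was 2.44, 2.46, 4.12 and 4.54 on arrays 1 to 4, and that of ciliated markers was 3.49, 2.74, 6.00 and 4.32. That of erythroid markers was 12.6, 3.03, 4.07 and 11.0, that of leukocyte markers 1.46, 1.47, 1.67 and 1.52, and that of stroma and smooth muscle markers 1.91, 1.56, 1.46 and 1.36. On the same arrays AREG A_04_P087998 had log2 ratios of 0.84, 0.58, 0.95 and 1.24. The labelled tissue was checked on its own markers. Of 8 trophectoderm genes 7 were well above background in all pools, KRT18 with the highest signal, and so were all 3 measured epiblast genes, of which POU5F1 was higher (0.21). Trophectoderm genes were on both sides of 0, with 2 higher (KRT8 and KRT18), 1 lower (GATA2), a median of −0.11 and a summed ratio of 1.3, 1.46, 1.51 and 1.39. Of 6 primitive endoderm genes 4 were well above background in all pools, and the list had a median of −0.32 and a summed ratio of 0.659, 1.09, 0.853 and 1. Of these genes COL4A1, a basement membrane collagen, was higher (0.35, adjusted p = 0.0347 by limma). AFP, alpha-fetoprotein, was lower (adjusted p = 0.0204 by limma). It was well above background in all fertilised pools and in no parthenote pool, so no fold is given.

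**Figure D5:**
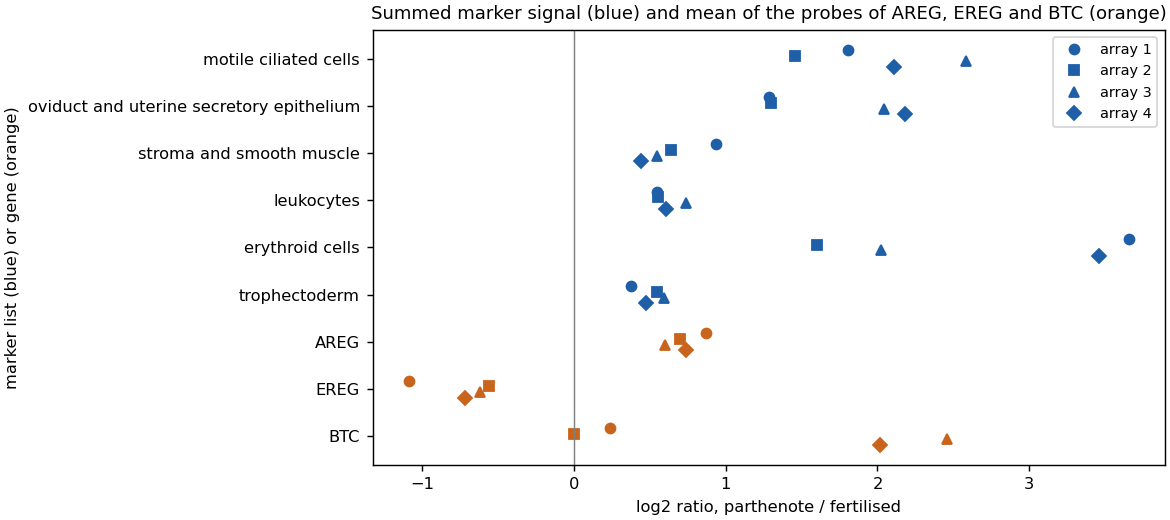
Log2 ratio of parthenote over fertilised (x axis) of the summed signal of 6 marker lists (blue, epiblast and primitive endoderm not shown) and of the mean over the probes of AREG, EREG and BTC (orange), with a symbol per array. The sums of these 6 lists are above 0 on all arrays, EREG is below 0, and BTC is near 0 on arrays 1 and 2 and above 2 on arrays 3 and 4.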

How the data were processed

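Spots were extracted by the authors with Agilent Feature Extraction 10.10.1.1. The deposited log10 ratio of Cy5 over Cy3 was computed by the authors from processed intensities, background-subtracted and dye-normalised, with surrogate values for dim spots and a ratio of 0 where both are surrogates. The deposited mean and background intensities are not normalised, and the authors' value table holds the same log10 ratios with the sign turned. Here these deposited ratios were converted to log2 of parthenote over fertilised, without control spots. Spots marked as outliers counted as missing, and repeated spots were averaged per probe. All member probes had a value on all 4 arrays.

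Probes with at least 3 values entered lmFit and eBayes of limma 3.58.1, two-sided, under R 4.3.3. Plots used matplotlib 3.10.9 and tables scipy 1.17.1, pandas 2.3.3 and numpy 2.4.6 under Python 3.11.15, with data.table (version 1.17.8) in R. The 2 channels of an array form a pair: deviations from the group mean correlated at 0.44, 0.47, 0.43 and 0.38 within arrays 1 to 4 and from −0.20 to −0.09 with other arrays. All arrays lay on 1 slide and were scanned together, so no batch could be compared. Of 43603 probes, 23314 were named; the table of rabbit genes (assembly mOryCun1.1) served for names only. Between 25805 and 27835 of the 43803 spots of an array that were not controls were well above background in a channel.

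A gene with several probes is given by the brightest over both channels, with its other probes as a range. Beside the members, named genes are the 3 largest called changes in each direction of each pathway list with the same sign on all arrays, the gene of highest signal in each marker list, and the 3 genes most like the brightest receptor and ligand. A few pathway and marker genes outside that rule (ADAM9, ADAM10, GRB2, BRAF, DUSP6, ERRFI1, LRIG1, EGR1, FOS, RSPH1, CFAP144, KRT8, GATA2, POU5F1, COL4A1, AFP) were chosen after their values were seen. 1 gene of the inhibitor list is not reported here. Members and lists were chosen with earlier results of these data known. Tested on simulated ratios for this comparison with 37192 probes, limma recovered 15 of 50 probes changed 1.5-fold, 29 of 50 changed 2-fold and 47 of 50 changed 5-fold, with 7 false calls. Only 200 simulated probes were changed, whereas 20.6% of the real probes were past the threshold. The adjustment was thus stricter there, and these shares do not give the power of the comparison itself.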

Additional observations from a re-analysis of the deposited data

Results flagged for a closer look

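Of the 35 member probes whose ratio varied, 1 had an array set apart from the other 3. The EGFR ectodomain probe A_04_P013692 had a log2 ratio of 0.68 on array 2 against −0.04 to 0.07 on the others. Chance sets apart about 1 in 20 groups of values under this criterion, and the neighbouring EGFR probes, which start 1 base away, had 0.15 and 0.58 on array 2.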

How the results depend on the processing

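The member calls changed with the combination of background correction and normalisation and with the number of arrays. Ligand probes past the threshold numbered 6, receptor probes 0, member genes by their brightest probe 2 (AREG and TGFA), pathway genes 15, marker genes of other cell types 17 and all probes 8996. With normexp (offset 50) and loess the ligand probes and member genes fell to 0. With normexp and median centring, which leaves dye bias that changes with signal, the counts were 9 ligand probes, 8 receptor probes, 4 member genes, 35 pathway genes, 30 marker genes and 31610 of all probes. Of these receptor probes 7 were of ERBB4, never well above background, and the other was ERBB2, called lower. Of the ligand probes 5 were of BTC and 2 of TGFA, both dim. With a repaired background and loess they were 1 receptor probe, 1 member gene and 13086 of all probes. With the ratio of processed signals, which keeps surrogate values, they were 9 receptor probes, 9 ligand probes, 3 member genes, 26 pathway genes, 28 marker genes and 21399 of all probes, and 65.0% of the latter were higher in parthenotes against 46.2%. Of these receptor probes 6 were of ERBB4 and 3 of EGFR. Without the replicate block the counts were 7 receptor probes, 8 ligand probes, 3 member genes, 25 marker genes and 16358 of all probes, with 68.0% higher. Here 5 of the receptor probes were of ERBB4 and 2 of EGFR. Among called ligand probes 33.3% were higher, against 100% with median centring and 50% without the replicate block, with the dim-probe filter or with a repaired background. The dim-probe filter, which tests fewer probes, gave 3 receptor probes and 1 member gene. The methods' t-test gave 1 ligand probe, 1 member gene, 5 pathway genes, 11 marker genes and 4435 of all probes.

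With 1 array left out, the ranges were 0 to 0 receptor probes, 0 to 1 ligand probes, 0 to 1 member genes, 0 to 5 pathway genes, 3 to 11 marker genes and 1239 to 5736 of all probes, where fewer samples leave less power. With median centring the sign turned for EREG A_04_P087992 (0.06), TGFA (0.21), EGFR A_04_P093372 (0.06), ERBB2 (−0.27), ERBB3 (0.10), SDC4 (−0.23), GSK3B (−0.35), RPS6KB1 (−0.42) and PHLDA1 (0.08). The sign of EGFR A_04_P093372 also turned with normexp and loess (0.01) and with the mean of all EGFR probes (0.19), and that of HBEGF with the mean of its probes (−0.02) and without array 1 (−0.01, the lowest of 4 such values up to 0.18). The cause of the sign changes was not tested. The authors' value table is the same data turned and says nothing about stability. Most member probes lie close to background.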
